A study of Sus scrofa with 20 samples.

Results

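The 200 most abundant transcripts of control LLC-PK1 cells held 32.2% ± 1.56 (SD, n = 4) of the reads of the control libraries, and between 21.5% and 25.8% of the reads of each of the 16 libraries in which a polycystin had been silenced. These transcripts were chosen by scaling the estimated counts of each library to a total of 1000000 (CPM) and by ranking all 46295 transcripts of the table on the mean CPM of the 4 control libraries. The first 200 were kept, and all 200 passed the filter on low counts. The choice thus used control values, so every comparison with the control group is given here as a description, and test results are read only from comparisons between silenced groups. These come from 1 model of 5 groups, in which the siNR libraries also enter the scaling and the estimate of spread. CPM was not divided by transcript length, so rank 1 means the most reads and not necessarily the most molecules.

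LLC-PK1 is a porcine proximal tubule epithelial line. Cells were transfected with small interfering RNAs (siRNAs) and RNA was prepared after 48 h. By the methods of the study, transfected cells were serum-starved for the last 24 h. The siNR group (4 libraries) was given a non-related siRNA at 200 nM, whose concentration the methods describe as matched. Polycystin-1 was silenced in the siPC1 group (5 libraries, siRNA at 150 nM) and polycystin-2 in the siPC2 group (3 libraries, siRNA at 100 nM). Myocardin-related transcription factor A (MRTF-A) was silenced as well in the siPC1+siMRTF-A group and in the group siPC2+siMRTF-A, of 4 libraries each, for which the sources give differing siRNA doses. Group sizes follow the sample labels and the table, and the study also states other sizes for some of these groups. An additional siPC1 library is named A2, and siPC2 lacks a number 1. MRTF-A was not silenced on its own in any group, and 1 cell line was used. The labels do not say whether replicates were separate cultures, so p-values measure only the spread between these libraries, which may be technical.

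Polycystin-1 and polycystin-2 are membrane proteins whose genes are mutated in autosomal dominant polycystic kidney disease. MRTF-A is a coactivator of serum response factor that enters the nucleus when actin polymerizes, and it drives cytoskeletal and fibrogenic genes. In most cell types a small set of transcripts, typically those of ribosomal proteins, translation factors, the cytoskeleton, glycolysis and mitochondrial respiration, takes a large part of the sequenced reads. The identifiers in the table are Ensembl transcript identifiers, and 0 of them matched the gene tables used here. No member is therefore named by gene, its function is not given, and epithelial markers and the siRNA targets were not checked. Members are called by their siNR rank, and an identifier is given for 4 of them.

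The total estimated count ranged from 4421001 (siPC1 replicate 1) and 11790504 (siPC2 replicate 2) to 71007731. At these depths the share held by the 200 members had a 95% Wilson interval of at most ±0.039 percentage points, which covers counting error only. Libraries of a group differed by more than sampling noise in each pair (chi-square per degree of freedom at least 9.34, for siPC1 replicate 1 and A2). None was thus a plain copy or resampling of another, and each was counted once. This does not show that they came from separate cultures or separate RNA. For siPC1 replicate 1 and A2, the closest pair, the members held 22.5% and 22.3% of the reads. At the edge of the list, the last 2 members had mean siNR values of 623 and 620 CPM, and the next transcripts outside had 618 and 616 CPM. The 200th place therefore separates values that differ by far less than the spread between siNR libraries, which ran from 568 to 684 CPM at rank 200.

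Each silenced group gave the members a smaller part of its reads than siNR did, whether or not MRTF-A was silenced too. The siNR siRNA was given at 200 nM, siPC1 at 150 nM and siPC2 at 100 nM. Loss of a polycystin and effects of the siRNAs themselves, that of siNR included, or of dose cannot be told apart. The siNR libraries devoted 30.5%, 32.2%, 31.7% and 34.2% of their reads to the 200 members (replicates 1 to 4). In siPC1 the share was 22.5%, 25.8%, 24.02% and 24.2% in replicates 1 to 4 and 22.3% in A2, and in siPC2 it was 23.0%, 25.02% and 24.9% in replicates 2 to 4. The highest of the silenced libraries, siPC1 replicate 2, lay below the lowest siNR library. In siPC1+siMRTF-A the shares were 21.5%, 24.2%, 24.1% and 25.1%, and in siPC2+siMRTF-A they were 21.9%, 23.6%, 25.2% and 23.9%. The group means of the silenced cells were close to each other at 23.8% ± 1.41 (siPC1, SD, n = 5), 24.3% ± 1.14 (siPC2, n = 3), 23.7% ± 1.56 (siPC1+siMRTF-A, n = 4) and 23.6% ± 1.34 (siPC2+siMRTF-A, n = 4).

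**Figure D1:**
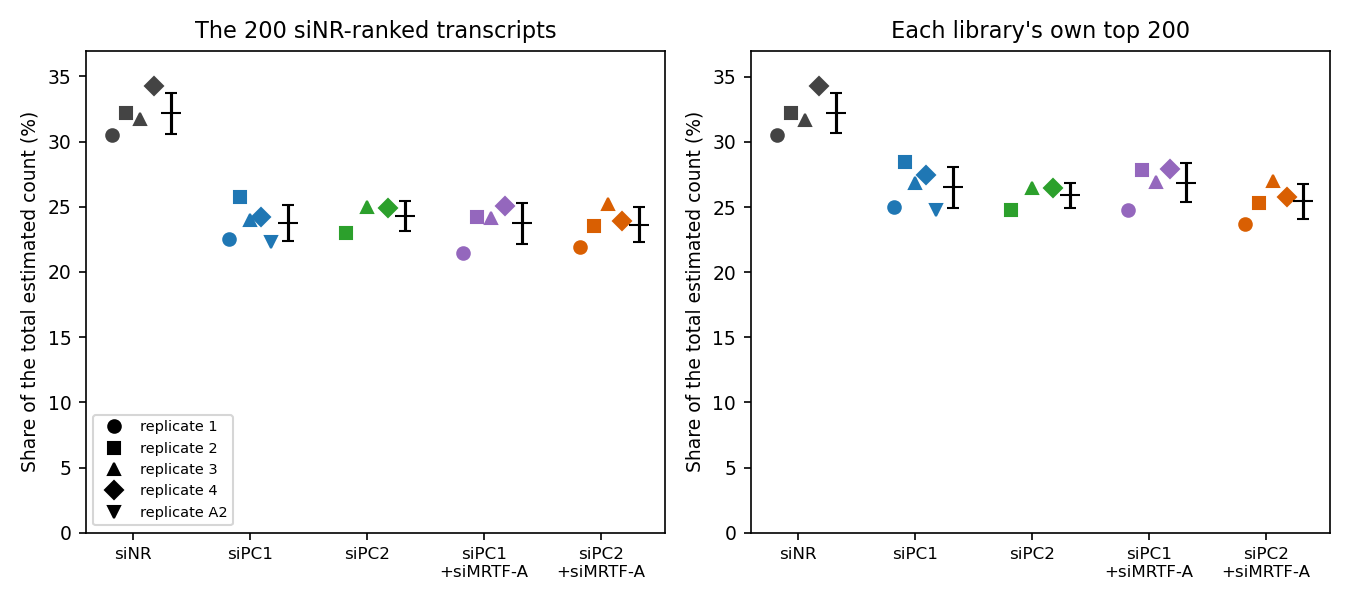
Share of the total estimated count (%, linear axes from 0) held by the 200 siNR-ranked transcripts (left) and by the 200 most abundant transcripts of each library itself (right). Each point is 1 library, its shape gives the replicate label, and the bar shows the group mean ± SD. On both sides the 4 siNR libraries lie above all 16 others, at 30.5% to 34.2% on the left.

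Among the silenced groups no difference in this share was detected. The difference was -0.0348 percentage points for siPC1+siMRTF-A minus siPC1, -0.68 for siPC2+siMRTF-A minus siPC2, -0.561 for siPC1 minus siPC2 and 0.0846 for siPC1+siMRTF-A minus siPC2+siMRTF-A. In 2-sided exact permutation tests the raw p-values were 0.984, 0.543, 0.607 and 0.886, and 0.984 for each after Benjamini-Hochberg adjustment over the 4 comparisons. The libraries overlapped in each of these comparisons. With so few libraries, the smallest raw p-values possible in these tests were 0.00794, 0.0286, 0.0179 and 0.0286, in the same order. Except for the first, none of these could alone reach an adjusted p of 0.05. Leaving out 1 library at a time moved the siMRTF-A difference between -0.485 and 0.714 percentage points after siPC1, so its sign was set by single libraries. The library numbered 1 had the lowest share in siNR and in both siMRTF-A groups, and siPC2 has no library of that number. Between libraries of the same number, the mean difference was 0.343 for siPC1 minus siPC2 (3 pairs, -1.0 to 2.76). Its sign was thus opposite to that of the group means. For siPC2+siMRTF-A minus siPC2 the same-number mean was -0.11 (3 pairs, -1.05 to 0.56). For siPC1+siMRTF-A minus siPC1 and minus siPC2+siMRTF-A it was -0.405 and 0.0825 (4 pairs each).

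The first 100 members lost more of their share than the second 100. The first 20 members held 8.96% to 10.5% of the siNR libraries and 5.92% to 7.58% of the others. For the members ranked 21 to 100 the group mean was 13.8% in siNR and 9.34% to 9.93% in the silenced groups. The members ranked 101 to 200 held 8.24% to 9.02% of the siNR libraries and 7.07% to 8.02% of the others. The next 200 transcripts in the ranking differed less, with group means of 8.76% in siNR and 7.87% to 8.44% in silenced cells. Transcripts beyond rank 1000 held the balance, at 44.2% to 48.5% of the siNR libraries and 53.7% to 58.6% of the others.

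Ranking on siNR favours transcripts that happened to be high in siNR, so the ranking was also made in other ways. When members were ranked on siNR replicates 1 and 2 only, they held 33.0% of the reads of replicates 3 and 4, which had not been used, against 23.7% to 24.3% in the silenced groups. With the roles exchanged the siNR share was 31.3%, against 23.7% to 24.4%. Both splits still ranked on control libraries, and 198 and 197 of their 200 transcripts were members. They address chance differences between siNR libraries only, and not the choice of transcripts that are high in the control condition. When each library was ranked on its own counts, a choice made after seeing the data, the top 200 held 30.6% to 34.3% in siNR and 23.7% to 28.5% in the silenced libraries, again without overlap. A share of 50% of all reads was reached by the first 663 to 895 transcripts of an siNR library and by the first 957 to 1287 of a silenced one. The 200 leading transcripts of siPC1 itself held more of the siNR libraries than of the siPC1 libraries on average, at 29.5% against 26.4%, and for siPC2 the values were 30.8% and 25.9%. Among the silenced groups, exact permutation tests detected no difference in the own-ranked share (adjusted p = 0.754 in each of the 4 comparisons). They had the same smallest possible raw p-values as the tests of the members' share. These are shares of a fixed total, and RNA per cell was not measured. In whole cultures, fewer cells of a type and less RNA per cell cannot be told apart.

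Measured transcript by transcript, most members were lower than in siNR in each silenced group. For a transcript to be called, edgeR's quasi-likelihood test had to give an adjusted p of 0.05 or less over all 27702 tested transcripts, the log2 fold change had to exceed 0.6 in size, and the normalized count had to average 50 or more. Against siNR these limits only sort the members, and no test result is drawn from passing them. In siPC1, 116 members were past the thresholds below siNR and 7 above it (all tested transcripts: 13.2% lower, 15% higher). In siPC2, 102 were lower and 4 higher (10.1% and 12%). In siPC1+siMRTF-A the counts were 108 and 5 (12.9% and 14.8%), and in siPC2+siMRTF-A they were 113 and 5 (10.7% and 12.8%). The member choice used the siNR values, so nothing is read from the distance between the members and the background.

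The median log2 fold change of the members against siNR was -0.74 in siPC1, -0.60 in siPC2, -0.68 in siPC1+siMRTF-A and -0.68 in siPC2+siMRTF-A, beside medians of 0.02, 0.00, 0.01 and 0.03 over all tested transcripts. These values are on the TMM scale. Scaled by library totals, the medians over all tested transcripts moved to 0.15, 0.14, 0.12 and 0.18 and those of the members to -0.60, -0.45, -0.56 and -0.52. Of the 200 members, 90 (45.0%) were past the thresholds below siNR in all 4 silenced groups, 3 (1.5%) were past them above it in all 4, and 63 (31.5%) in none. Over all tested transcripts these shares were 5.94%, 7.67% and 61.2%.

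**Figure D2:**
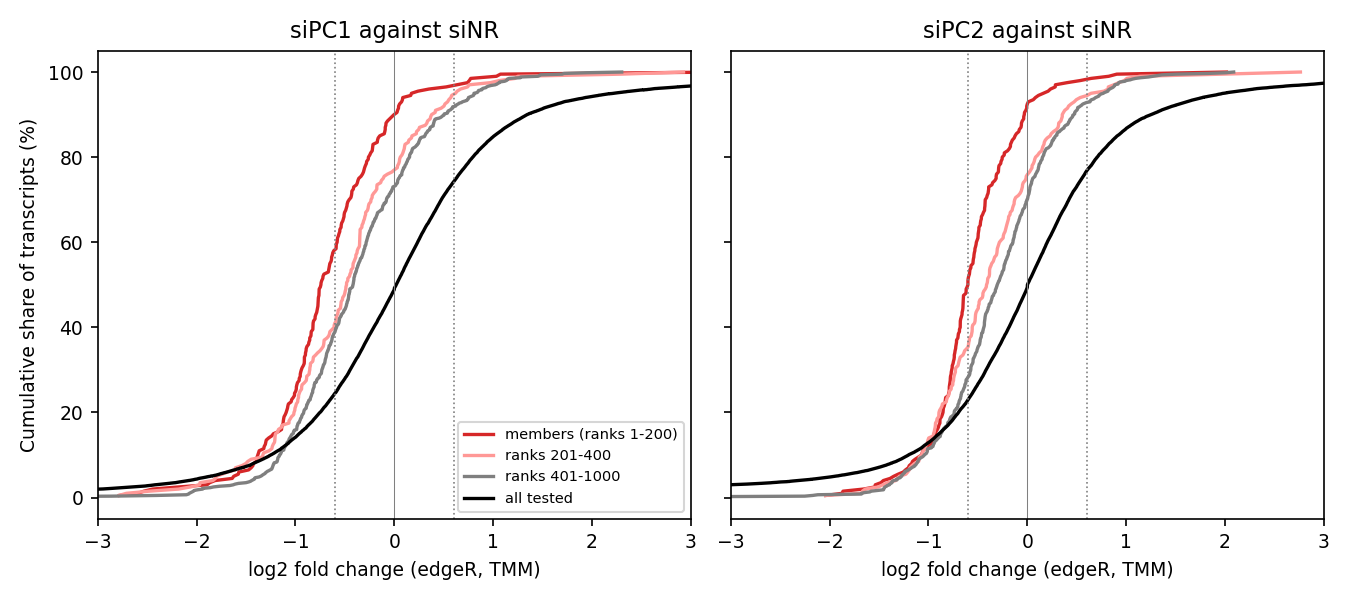
Cumulative share of transcripts (%) by their edgeR log2 fold change (TMM scale) in siPC1 (left) and siPC2 (right) against siNR, for the 200 members, for the next 200 and the following 600 transcripts of the siNR ranking, and for all 27702 tested. Dotted lines mark the fold threshold of 0.6 in either direction, and the axis stops at 3, beyond which lie 1 member on the left (rank 168, at 3.32) and some of the transcripts tested. The curve of the members lies left of that of all transcripts over most of its course, with medians of -0.74 and -0.60.

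In siPC1 the mean CPM was lower than in siNR for 170 members and higher for 30, and 126 members had every siPC1 library below every siNR library, against 10 with every library above (63.0% and 5.0%, beside 16.1% and 22% of all tested transcripts). The falls amounted to 10.8 percentage points of the library and the rises to 2.4. The 10 largest falls made up 25.5% of all falls in siPC1, 25.9% in siPC2, 26.8% in siPC1+siMRTF-A and 26.0% in siPC2+siMRTF-A. The most abundant member, rank 1, read 8353, 9885, 9601 and 10199 CPM in siNR and 4981 to 6697 CPM in siPC1, without overlap, and took the third place in each silenced group.

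A few members went the other way. The member ranked 3 in siNR became the most abundant transcript of all 4 silenced groups. It read 6747, 7128, 6120 and 6202 CPM in siNR and 13404, 17180, 15892, 13558 and 13603 CPM in siPC1 (replicates 1 to 4 and A2). In siPC2 it read 7608, 9369 and 8590 CPM, which is above each siNR library and below each siPC1 library. It stood at 14450, 17460, 17086 and 17365 CPM in siPC1+siMRTF-A and at 7600, 9393, 10497 and 9480 CPM in siPC2+siMRTF-A. Between the silenced groups, this member was higher in siPC1 than in siPC2 by a log2 fold change of 0.80 (SE 0.14, edgeR adjusted p = 0.000459) and higher in siPC1+siMRTF-A than in siPC2+siMRTF-A by 0.89 (SE 0.14, edgeR adjusted p = 0.000184).

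The member ranked 168 had the largest rise among the 200 as a fold change, while rank 3 gained the most reads in siPC1 and in siPC1+siMRTF-A. It read 1093, 652, 589 and 672 CPM in siNR, where replicate 1 lay apart from the others, and 7568, 7688, 8531, 9473 and 7675 CPM in siPC1, where it held the second place. In siPC2 it read 3464, 3312 and 3200 CPM, so the 3 groups did not overlap. With siMRTF-A added it read 8342, 8260, 7926 and 7760 CPM after siPC1 and 4314, 4696, 4022 and 4691 CPM after siPC2. Its log2 fold change between siPC1 and siPC2 was 1.31 (SE 0.14, edgeR adjusted p = 2.1e-06), and it was 0.91 between the groups with siMRTF-A (SE 0.13, edgeR adjusted p = 9.46e-05). Together with the members ranked 154 and 183, this was one of the 3 members past the thresholds above siNR in all 4 groups. The member ranked 154 read 736 to 860 CPM in siNR and 1267 to 1872 CPM over the silenced libraries, and the one ranked 183 read 594 to 770 and 972 to 1793 CPM.

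**Figure D3:**
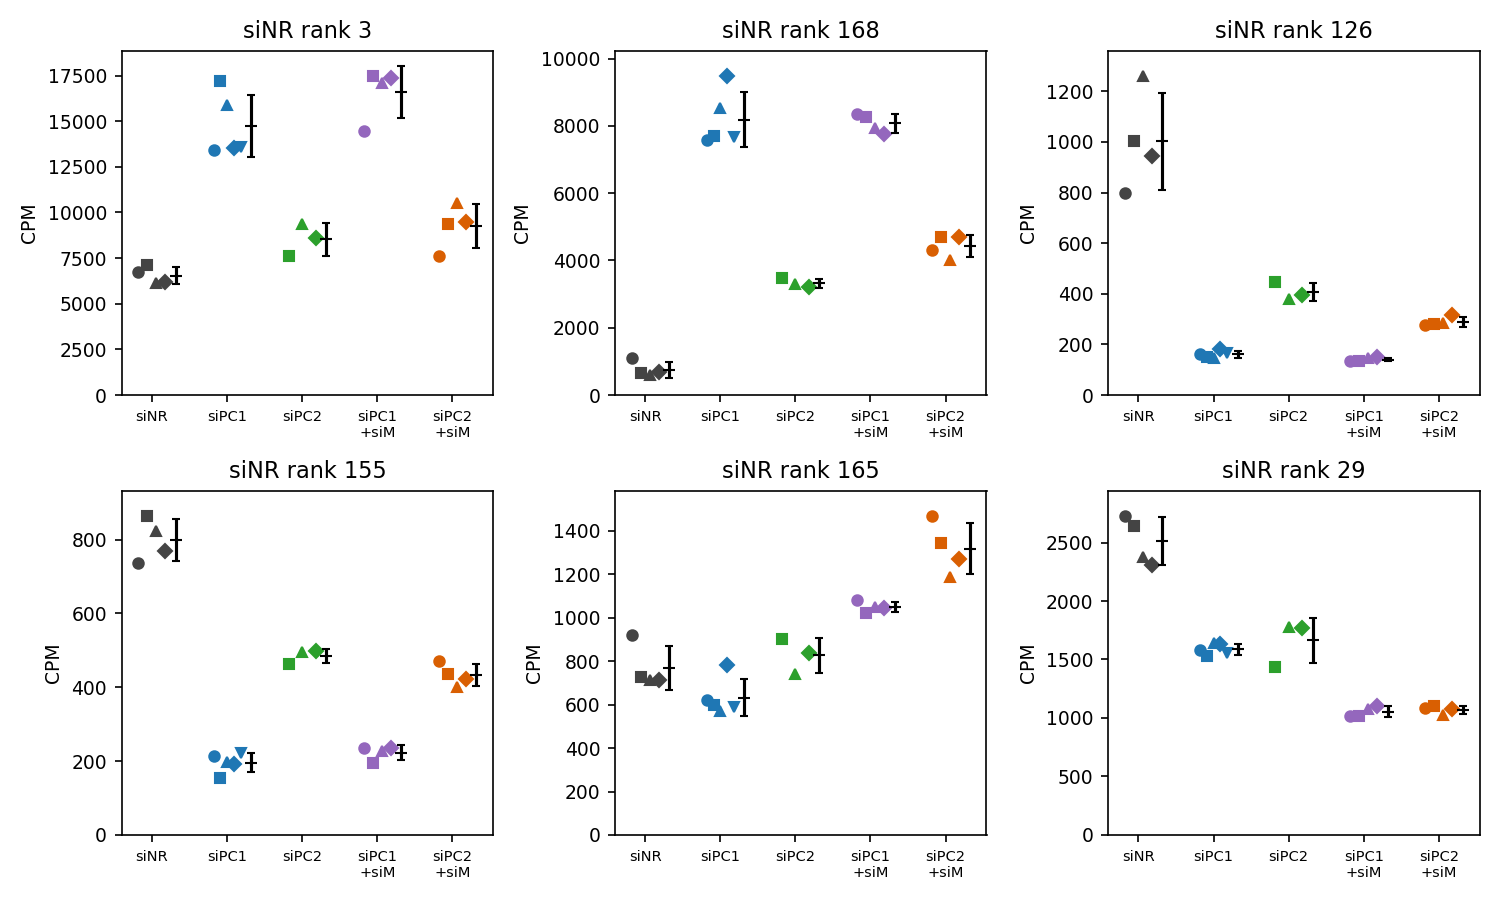
CPM (linear axes from 0) of 6 members in each library, by group. Points are libraries, shaped by replicate label as in the plot of shares (circle 1, square 2, upward triangle 3, diamond 4, downward triangle A2), siM stands for siMRTF-A, and the bar gives the mean ± SD. Ranks 3 and 168 are high and ranks 126 and 155 low in the siPC1 groups relative to the siPC2 groups, while rank 165 is higher and rank 29 lower with siMRTF-A than without it.

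The list of leading transcripts was partly replaced. The 200 most abundant transcripts of siPC1, by group mean, included 154 of the members (77%), and those of siPC2 included 166, those of siPC1+siMRTF-A 152 and those of siPC2+siMRTF-A 165. In the top 200 of all 5 groups stood 143 transcripts, and 31 members were in the top 200 of no group but siNR. The deepest fall in rank was to place 1355, by the member ranked 197, in siPC1+siMRTF-A. In the other direction, the transcript that came from farthest was not a member. It ranked 10405 in siNR with a mean of 13.2 CPM ± 8.56 (SD, n = 4), and it reached place 58 in siPC1 (1280 CPM ± 418, n = 5) and place 17 in siPC1+siMRTF-A (2470 CPM ± 522, n = 4). In siPC2 it stood at place 223 (544 CPM ± 35.5, n = 3) and in siPC2+siMRTF-A at place 155 (725 CPM ± 175, n = 4).

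siPC1 was then compared with siPC2, which asks whether the abundant transcripts stood at different levels in these 2 groups. The siRNAs were given at 150 nM and 100 nM, and their targets were not checked here. Loss of a polycystin and other effects of its siRNA or of the dose cannot be told apart. Of the 200 members, 16 were lower and 5 higher in siPC1 than in siPC2, in all 10.5%. Among all tested transcripts 11.4% were called (5.78% lower, 5.6% higher). Only 20212 of the 27702 tested transcripts reached the mean count of 50 that a call needs, as did all 200 members. In every comparison, the share called over all tested transcripts is thus lower than among transcripts that could be called. The shares called were 14.5% of the next 200 transcripts of the siNR ranking and 13% of the 600 after them. Without the fold threshold the shares were 24.5% of the members and 23.3% of all tested transcripts. The median log2 fold change was -0.08 over the members and 0.00 over all tested transcripts. When the 200 were ranked over all 20 libraries in place of siNR, 15 were higher and 10 lower, so the balance changed with the ranking. That ranking used the compared libraries themselves, 5 of siPC1 and 3 of siPC2. It therefore cannot show that ranking on siNR made the excess of lower members.

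The members that were lower in siPC1 than in siPC2 by the largest fold changes, ranks 126, 155 and 17, were low in both relative to siNR. Rank 126 read 797, 1005, 1259 and 945 CPM in siNR. It read 163, 152, 146, 181 and 167 CPM in siPC1 and 445, 380 and 394 CPM in siPC2, a log2 fold change of -1.32 (SE 0.13, edgeR adjusted p = 5.04e-07). The 3 groups did not overlap. Rank 155 read 736 to 864 CPM in siNR, 155 to 223 CPM in siPC1 and 463 to 498 CPM in siPC2, with a log2 fold change of -1.31 between the last 2 groups (SE 0.08, edgeR adjusted p = 4.93e-09). Rank 17, which read 2956 to 3589 CPM in siNR, stood within 596 to 622 CPM in siPC1 and 1121 to 1370 CPM in siPC2, and its log2 fold change was -1.06 (SE 0.11, edgeR adjusted p = 1.04e-06).

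Ranks 50 and 98 overlapped siNR in siPC1 and not in siPC2. Rank 50 read 1501 to 2144 CPM in siNR and 1897 to 2521 CPM in siPC1, which overlap, and 819, 848 and 854 CPM in siPC2. It was higher in siPC1 than in siPC2 by a log2 fold change of 1.37 (SE 0.10, edgeR adjusted p = 2.73e-08). Rank 98 showed the opposite order. It read 1053 to 1344 CPM in siNR, 1275 to 1470 CPM in siPC1 and 2302 to 2785 CPM in siPC2, with a log2 fold change of -0.86 (SE 0.07, edgeR adjusted p = 1.03e-07). Rank 137 was called higher in siPC1 than in siPC2 although the groups overlapped, because siPC1 replicate 4 read 1159 CPM while the other 4 siPC1 libraries read 2283 to 2591 CPM and siPC2 read 1094 to 1276 CPM.

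In the presence of siMRTF-A, 12 members had lower and 3 had higher values in siPC1+siMRTF-A than in siPC2+siMRTF-A, in all 7.5% beside 5.51% of all tested transcripts (2.92% lower, 2.59% higher), and without the fold threshold 18.5% beside 14.8%. Ranking over all 20 libraries gave 11 higher and 9 lower. This comparison has no library in common with that of siPC1 and siPC2 alone, and 8 members (4.0%) were called in the same direction in both, beside 4.44% of all tested transcripts. Ranks 17, 78, 126, 155 and 197 were lower with siPC1 in both, and ranks 3, 50 and 168 were higher in both. Rank 126 read 134, 134, 145 and 149 CPM in siPC1+siMRTF-A and 275, 280, 284 and 316 CPM in siPC2+siMRTF-A, with a log2 fold change of -0.997 (SE 0.13, edgeR adjusted p = 2.66e-05).

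Adding siMRTF-A asks which abundant transcripts change with this added siRNA once a polycystin is silenced. The knockdown was not checked here. Loss of MRTF-A and other effects of the added siRNA or of its dose cannot be told apart. After siPC1, 11 members were lower and 3 higher with siMRTF-A than without it, in all 7%, beside 2.29% of all tested transcripts (1.1% lower, 1.18% higher), 2.5% of the next 200 transcripts and 2.67% of the 600 after them. After siPC2, 1 member was lower and 1 higher, in all 1%, beside 1.59% of all tested transcripts (0.924% lower, 0.664% higher). Without the fold threshold the shares were 16% of the members and 8.27% of all tested transcripts after siPC1, and 7.5% and 4.51% after siPC2. The median log2 fold changes of the members were 0.06 and -0.05. With 1 library left out at a time, the number of members called ran from 8 (3 higher and 5 lower, without siPC1 replicate 4) to 14 after siPC1. After siPC2 it ran from 0 (without siPC2 replicate 3) to 4 (without siPC2 replicate 2).

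**Figure D4:**
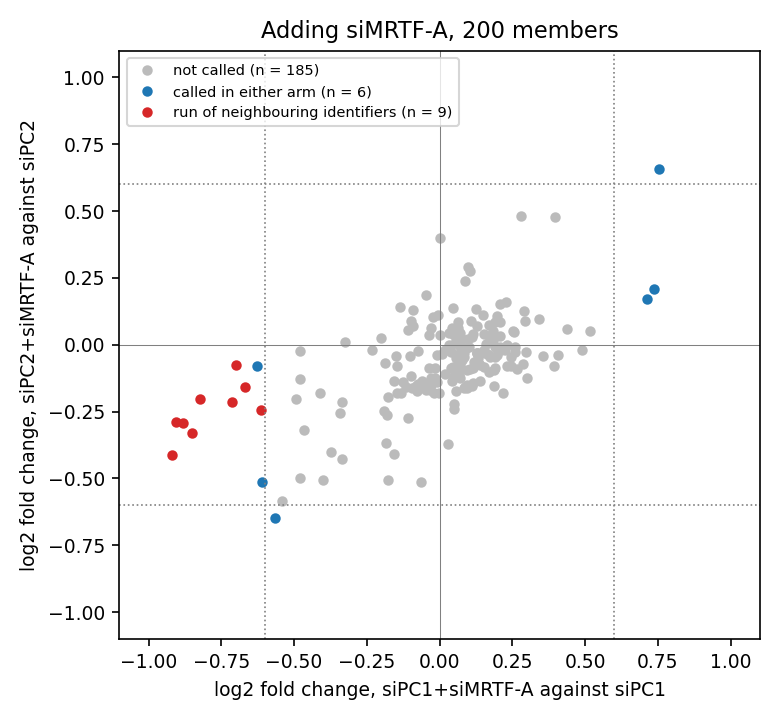
edgeR log2 fold change of each of the 200 members on adding siMRTF-A to siPC1 (horizontal) and to siPC2 (vertical); dotted lines mark the fold threshold of 0.6. The 9 members of a run of neighbouring identifiers lie together at the left, from -0.92 to -0.61 on the horizontal axis and from -0.41 to -0.08 on the vertical one, and 1 member, rank 165, lies above the threshold on both.

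Of the 200 members, 1 was raised by siMRTF-A in both arms and 0 were lowered in both, beside 0.199% and 0.444% of all tested transcripts. ENSSSCT00000010601.4, ranked 165, read 622, 598, 568, 781 and 590 CPM in siPC1 and 1082, 1022, 1047 and 1045 CPM in siPC1+siMRTF-A. In siPC2 it read 900, 743 and 836 CPM and in siPC2+siMRTF-A 1467, 1346, 1189 and 1269 CPM. Neither pair of groups overlapped. The log2 fold change was 0.75 after siPC1 (SE 0.09, edgeR adjusted p = 3.64e-05) and 0.66 after siPC2 (SE 0.10, edgeR adjusted p = 0.000932). Without siPC2 replicate 3 the second value was 0.595, which is under the fold threshold. In siNR this transcript read 713 to 919 CPM.

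ENSSSCT00000053256.3, ranked 29, fell when siMRTF-A was added to siPC2. It read 1437, 1778 and 1773 CPM in siPC2 and 1087, 1099, 1022 and 1078 CPM in siPC2+siMRTF-A, a log2 fold change of -0.65 (SE 0.08, edgeR adjusted p = 7.84e-05) that was -0.588 without siPC2 replicate 3. In siPC1 it read 1528 to 1639 CPM and in siPC1+siMRTF-A 1015 to 1107 CPM, also without overlap. There the log2 fold change was -0.56, which did not reach the fold threshold, and it was -0.603 and called without the 2 shallowest libraries. In siNR it read 2305 to 2726 CPM, so the groups with siMRTF-A were farthest from siNR.

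ENSSSCT00000016699.5, ranked 89, rose on adding siMRTF-A to siPC1. It read 273, 275, 234, 181 and 260 CPM in siPC1 and 391, 432, 392 and 376 CPM in siPC1+siMRTF-A, a log2 fold change of 0.74 (SE 0.13, edgeR adjusted p = 0.00128). After siPC2 the log2 fold change was 0.21 and was not called. Its siNR values were 1016 to 1404 CPM, above both groups. Rank 79 also rose, with 1171 to 1681 CPM in siNR, 519 to 611 CPM in siPC1 and 865 to 975 CPM in siPC1+siMRTF-A (log2 fold change 0.71, SE 0.08, edgeR adjusted p = 1.39e-05). Beyond these, ranks 10 and 50 were lower with siMRTF-A after siPC1, by log2 fold changes of -0.61 and -0.63, and neither pair of groups overlapped.

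The other 9 members lowered by siMRTF-A after siPC1 stood next to each other in the table. They belong to a run of 13 consecutive rows whose identifiers lie within a span of 30 numbers, which was noticed after the values had been seen and is therefore described without a test of its own. The members of the run were ranked 2, 19, 31, 41, 78, 95, 124, 147 and 170 in siNR, and the other 4 transcripts were ranked 271, 332, 461 and 763. All 13 were called lower in siPC1+siMRTF-A than in siPC1, with log2 fold changes from -0.92 to -0.61 and a median of -0.85. After siPC2, 0 of the 13 were called on adding siMRTF-A, with values from -0.41 to -0.08 and a median of -0.24. Of the members called lower in siPC1+siMRTF-A than in siPC2+siMRTF-A, 8 belonged to the run, and this comparison shares the siPC1+siMRTF-A libraries with the first. Without the run, 5 members were called on adding siMRTF-A to siPC1 (3 higher, 2 lower) and 7 between the groups with siMRTF-A (3 higher, 4 lower). These are 2.62% and 3.66% of the 191 other members, beside 2.29% and 5.51% of all tested transcripts. The run was grown from the member of largest fall on adding siMRTF-A to siPC1. The lower share without the run is therefore not an independent result, and all tested transcripts still include the run. At the fold threshold, 9 of the 14 members called on adding siMRTF-A to siPC1 were in the run. Without that threshold 32 members were called there, more than the 9 of the run. Whether neighbouring identifiers come from 1 gene or genomic unit was not tested, and the 9 calls need not be separate changes.

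The run held 2.001% to 2.39% of the siNR libraries and 0.662% to 0.893% of the siPC1+siMRTF-A libraries. In siPC1 its share was 1.33%, 1.36%, 0.989%, 1.84% and 1.31% (replicates 1 to 4 and A2), so that replicate 4 stood highest and replicate 3 lowest, and all 5 lay above siPC1+siMRTF-A. In siPC2 it was 1.53%, 1.69% and 2.17%, and in siPC2+siMRTF-A 1.85%, 1.34%, 1.52% and 1.53%, which overlap. The strongest fall of the run was in ENSSSCT00000019686.3, ranked 78. It read 733, 593, 477, 941 and 742 CPM in siPC1 and 370, 261, 417 and 402 CPM in siPC1+siMRTF-A (log2 fold change -0.92, SE 0.20, edgeR adjusted p = 0.00582). In siPC2 it read 909, 1043 and 1445 CPM and in siPC2+siMRTF-A 1242, 705, 716 and 795 CPM, and there its log2 fold change of -0.41 was not called. Without siPC1 replicate 4, 5 of the 9 members of the run were still called on adding siMRTF-A to siPC1, and all 9 were negative, from -0.79 to -0.45. With only the siPC1 and siPC1+siMRTF-A groups in the model, 6 of the 9 were called (log2 fold changes from -0.94 to -0.63, edgeR adjusted p up to 0.104).

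**Figure D5:**
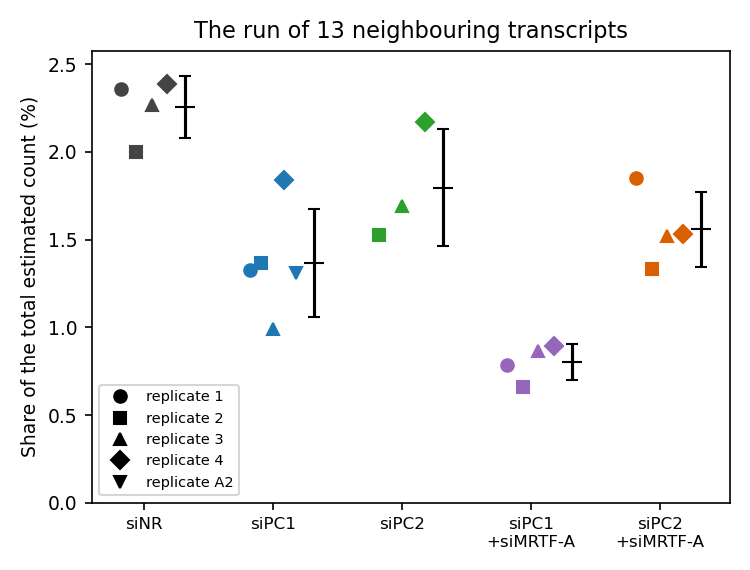
Share of the total estimated count (%, linear axis from 0) held by the run of 13 neighbouring transcripts in each library, by group. Points are libraries shaped by replicate label and the bar gives the mean ± SD. The siPC1+siMRTF-A libraries lie lowest at 0.662% to 0.893%, and siPC1 replicate 4 stands apart at 1.84%.

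Whether siMRTF-A acted differently after siPC1 than after siPC2 was tested as an interaction in the same model. It called 0 of the 200 members with edgeR and 0 with DESeq2, beside 0.296% of all tested transcripts with edgeR. Without the fold threshold edgeR called 2 members, beside 0.617% of all tested transcripts. At an unadjusted p under 0.05 there were 29 members (14.5%), beside 9.32% of all tested transcripts. For the 9 members of the run the difference between the additions was -0.62 to -0.37 on the log2 scale, with edgeR adjusted p-values from 0.314 to 0.787. The difference between the arms in the number of members called is thus not shown to be a difference in their response.

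The members were measured with a moderate spread. The median coefficient of variation of CPM between libraries was 8.14% in siNR, 11.2% in siPC1, 7.78% in siPC2, 8.74% in siPC1+siMRTF-A and 8.70% in siPC2+siMRTF-A. For the next 200 transcripts it was 7.98%, 8.53%, 6.74%, 5.70% and 6.66%, so outside siNR the more abundant members varied somewhat more. The rank 78 transcript of the run had the highest coefficient among the members in siPC2 (24.6%), in siPC1+siMRTF-A (19.4%) and in siPC2+siMRTF-A (29.5%). None of the 200 members had a whole-number estimate in every library (tolerance 0.0005), against 984 of all tested transcripts (3.55%). Some reads of each member were thus divided by estimation in at least 1 library, and a change in a member can hold a change in this division.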

How the data were processed

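RNA-Seq libraries were made from poly(A) RNA of LLC-PK1 cells. The authors trimmed the reads (Trim Galore 0.6.3 by the submitters' processing notes, which also name FastQC 0.11.8 and HISAT2), estimated transcript counts with Salmon 0.14.1 against the Ensembl coding sequences of Sscrofa11.1, and deposited the estimated counts as they were, not normalized. Reads in untranslated regions were therefore not counted. The sources give single-read and paired-end runs without naming the libraries, so a difference in read layout could not be checked.

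CPM was 1000000 times the estimated count over the library total. For tests, counts were rounded and fitted in R 4.3.3 with edgeR 4.0.16 (TMM factors, filterByExpr by group, 1 quasi-likelihood model of 5 groups, no covariate), which kept 27702 of 46295 transcripts. Of these, 20212 reached the mean normalized count of 50 that a call needs, as did all 200 members. Adjusted p-values are Benjamini-Hochberg over all tested transcripts. Shares were compared between libraries by exact permutation tests. The members, the lists and the thresholds were chosen with earlier results of these data known. By the rule for names, identifiers were to be printed for the largest rise and fall on adding siMRTF-A in each arm, with the next largest where 1 transcript led both, since 0 identifiers matched the 15623 and 30371 rows of the gene tables. Marker lists, gene lists and the knockdown were not analysed here. Members given by rank only were chosen after their values were seen.

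Replicate numbers are shared between groups in the labels but carry no stated meaning, so the main tests used no pairing. The alternatives were DESeq2 1.42.0, library totals, another count filter, no fold threshold, other rankings, a replicate block, models of only the groups compared, and fits that each left out 1 library. The fit was tested on simulated data.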

Additional observations from a re-analysis of the deposited data

Results flagged for a closer look

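For 19 members and 5 measures of share, each group of 4 or 5 libraries was inspected for a library far from the rest. Such a library was found in 9 of 96 groups, all of them CPM values of members, where chance gives about 1 in 20. The 3 siPC2 libraries were too few to inspect. The member ranked 3 read 14450 CPM in siPC1+siMRTF-A replicate 1 and 17090 to 17460 CPM in the other 3 libraries. The member ranked 10 read 4650 CPM in siNR replicate 2, against 4233 to 4268 CPM. The member ranked 17 read 1046 CPM in siPC2+siMRTF-A replicate 3, against 974 to 985 CPM. The member ranked 78 read 1242 CPM in siPC2+siMRTF-A replicate 1, against 705 to 795 CPM, and without this library its siPC2+siMRTF-A against siPC2 log2 fold change was -0.605 in place of -0.41, still not called. In siPC1 replicate 4, the member ranked 137 read 1159 CPM against 2283 to 2591 CPM, the member ranked 154 read 1748 CPM against 1354 to 1466 CPM, and the member ranked 165 read 781.4 CPM against 568 to 622 CPM. In siNR replicate 1, the member ranked 165 read 918.6 CPM against 713 to 728 CPM, and the member ranked 168 read 1093 CPM against 589 to 672 CPM.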

How the results depend on the processing

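The counts of members called stayed within 1.5 times under DESeq2 (14, 2, 21 and 15 for the comparisons without siNR), under another count filter and with only the compared groups in the model. Scaling by library totals moved the members past the thresholds in siPC2 against siNR from 106 to 68. Without a fold threshold, 32 members were called on adding siMRTF-A to siPC1, 15 on adding it to siPC2, 49 for siPC1 against siPC2 and 37 between the groups with siMRTF-A. Without the 2 shallowest libraries 4 members were called on adding siMRTF-A to siPC2, and without the run of neighbours 5 on adding it to siPC1 and 7 between the groups with siMRTF-A. The 2 members given by the interaction without a fold threshold were 0 with it.

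With 1 library left out at a time, the members called ran from 8 to 14 and from 0 to 4 when siMRTF-A joined siPC1 and siPC2, from 15 to 21 for siPC1 against siPC2, and were 15 throughout between the groups with siMRTF-A. Against siNR they ran from 115 to 134 (siPC1), 86 to 118 (siPC2), 103 to 126 (siPC1+siMRTF-A) and 105 to 130 (siPC2+siMRTF-A). Differences in share ran from -0.485 to 0.714 and from -1.34 to -0.11 percentage points on adding siMRTF-A to siPC1 and siPC2, from -1.22 to -0.191 for siPC1 minus siPC2 and from -0.486 to 0.834 between the groups with siMRTF-A. The siNR share ran from 31.5% to 32.7%.

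The share difference on adding siMRTF-A to siPC1 changed sign to 0.369 with TMM library sizes, 0.317 when ranked over all 20 libraries, 0.00538 when ranked on siNR replicates 1 and 2, and 0.366 with each library's own top 200. That of siPC1 minus siPC2 became 0.608 and 0.611 under the second and the last of these, and that between the groups with siMRTF-A became -0.323 for the first 500 transcripts. The siNR share was 34.9% with TMM library sizes, 9.72% for the first 20 and 43.9% for the first 500. The cause was not tested.

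A replicate block by library number, without A2, gave 14, 2, 15 and 15 members in the comparisons without siNR and changed no call of a named member. With the block, siPC1 against siPC2 had 10 lower and 5 higher members, in place of 16 and 5. The median log2 fold change of the members there was 0.018 in place of -0.085. Libraries of 1 number had a mean correlation of 0.108 over 36 pairs (from -0.127, with 15 above 0.1). Pairs of different number had a mean of -0.024 over 123 pairs (from -0.482, with 22 above 0.1). Libraries of 1 number thus deviated together weakly but more than others. The numbers carry no stated meaning, and the block was not used in the report. The shallowest libraries were siPC1 replicate 1 and siPC2 replicate 2. Without siPC2 replicate 2, 86 members were past the thresholds in siPC2 against siNR, in place of 106. On adding siMRTF-A to siPC2, 4 members were then called in place of 2. The share difference there was -1.34 percentage points in place of -0.68. Whether depth was the reason was not tested.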
